A study of Mus with 15 samples.

Results

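The RNA levels of 8 genes were followed across developing regulatory T cells (Tregs) of the mouse thymus. The genes encode the adaptors TRAF1, TRAF2, TRAF3, TRAF5 and TRAF6 and the ubiquitin regulators A20 (gene Tnfaip3), cIAP1 (Birc2) and cIAP2 (Birc3), and they were chosen by symbol as the proteins that stand between TNF receptors and NF-κB. All 8 were found in the table of 55573 Ensembl genes and all 8 passed the filter on low counts. The RNA came from sorted thymocytes of 6-week-old female mice of the strain C57Bl/6 x Foxp3-GFP. All gates were set on live cells that stained for the beta chain of the T cell receptor and for CD4 and not for CD8 or CD73. Within this population, conventional CD4 single-positive cells were negative for CD25 (the IL-2 receptor alpha chain) and for FOXP3 (the transcription factor that defines Tregs). CD25+ progenitors were positive for CD25 and negative for FOXP3, FOXP3lo progenitors were the reverse with a low FOXP3 signal, and mature Tregs were positive for CD25 and FOXP3. Cells with BST2, a membrane protein induced by interferon, were kept out of these 4 gates and sorted as the Bst2+ gate where they were positive for CD25, FOXP3 or the pair. Each gate had 3 libraries, numbered 40, 42 and 43. They are biological replicates of a single sort experiment, and as the labels do not say whether a replicate was a mouse or a pool, p-values measure the spread between these samples.

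TNF receptors such as TNFR2, OX40, 4-1BB and GITR have no enzyme of their own and recruit TRAF proteins to their cytoplasmic tails. TRAF2 brings in the ubiquitin ligases cIAP1 and cIAP2, whose ubiquitin chains gather the kinases that release NF-κB, and TRAF3 together with TRAF2 and the cIAPs holds down the alternative NF-κB pathway by having its kinase NIK degraded. A20 edits and removes ubiquitin chains and limits the signal, and its gene, like Birc3 and Traf1, is a known target of NF-κB. In the thymus, signals through these receptors and through NF-κB are known to take part in the making of Tregs.

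Libraries held 10816064 to 23758157 assigned counts, and a single member had between 196 and 3902 counts in a library. Libraries of the Bst2+ gate differed from the other 12 in quality measures. They had fewer genes with a count (14685 to 17198 against 18355 to 23382), more counts from the mitochondrial chromosome (15.3% to 21% against 10.3% to 12.5%) and a biological coefficient of variation of 0.947 among themselves, against 0.149 to 0.240 within the other gates. Because all libraries shared an estimate of spread, results of the 8 members among the other 4 gates are given without the Bst2+ libraries as well wherever a call changed. For the pathway list only some counts of genes called are given in this way. Its subgroups and named genes rest on all 15 libraries. The summed level of 8 T cell markers was 2550 to 4070 CPM (read pair counts scaled for depth, with TMM library sizes) in all 15 libraries. Each log2 fold change is followed by its standard error after ±, and p-values come from the quasi-likelihood test of edgeR, adjusted by Benjamini-Hochberg over 16069 genes. A gene was called at an adjusted p under 0.05.

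Mature Tregs had more RNA of most of these genes than conventional cells, while Traf1 was higher in FOXP3lo progenitors and lower in CD25+ progenitors than in conventional cells. In mature Tregs 6 of 8 members were higher and 0 lower than in conventional cells, where 6.45% of all genes were called higher and 5.73% lower. In FOXP3lo progenitors 3 of 8 were higher and 0 lower (4.88% and 3.83% of all genes), and in CD25+ progenitors 3 were higher and 2 lower (5.98% and 5.66%). Between the progenitors 5 members were called, 1 higher and 4 lower in CD25+ cells (9.93% and 9.17% of all genes). Mature Tregs had 4 members higher and 1 lower than CD25+ progenitors (6.78% and 6.26%), and 1 higher and 0 lower than FOXP3lo progenitors (2.51% and 2.21%). These comparisons share samples, so their counts are not independent. The 5 members called in CD25+ against conventional cells became 3 without conventional replicate 40 or 43 or CD25+ replicate 40 and 2 without conventional replicate 42 or CD25+ replicate 43, and the 1 in mature Tregs against FOXP3lo progenitors became 0 without FOXP3lo replicate 42 or 43 or mature replicate 40 or 43. The median log2 fold change of the members was 0.60 in mature Tregs, 0.47 in FOXP3lo progenitors and 0.30 in CD25+ progenitors against conventional cells, beside −0.01, −0.02 and −0.01 over all genes tested. Without the Bst2+ libraries the members higher and lower than in conventional cells were 7 and 0 in mature Tregs (30.4% of all genes called), 7 and 0 in FOXP3lo progenitors (25.1%) and 5 and 3 in CD25+ progenitors (29.0%). On the same basis 1 member was higher and 4 lower in CD25+ than in FOXP3lo progenitors (39.5% called), 6 were higher and 1 lower in mature Tregs than in CD25+ progenitors (32.7%), and 3 were higher and 0 lower in mature Tregs than in FOXP3lo progenitors (18.7%).

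**Figure D1:**
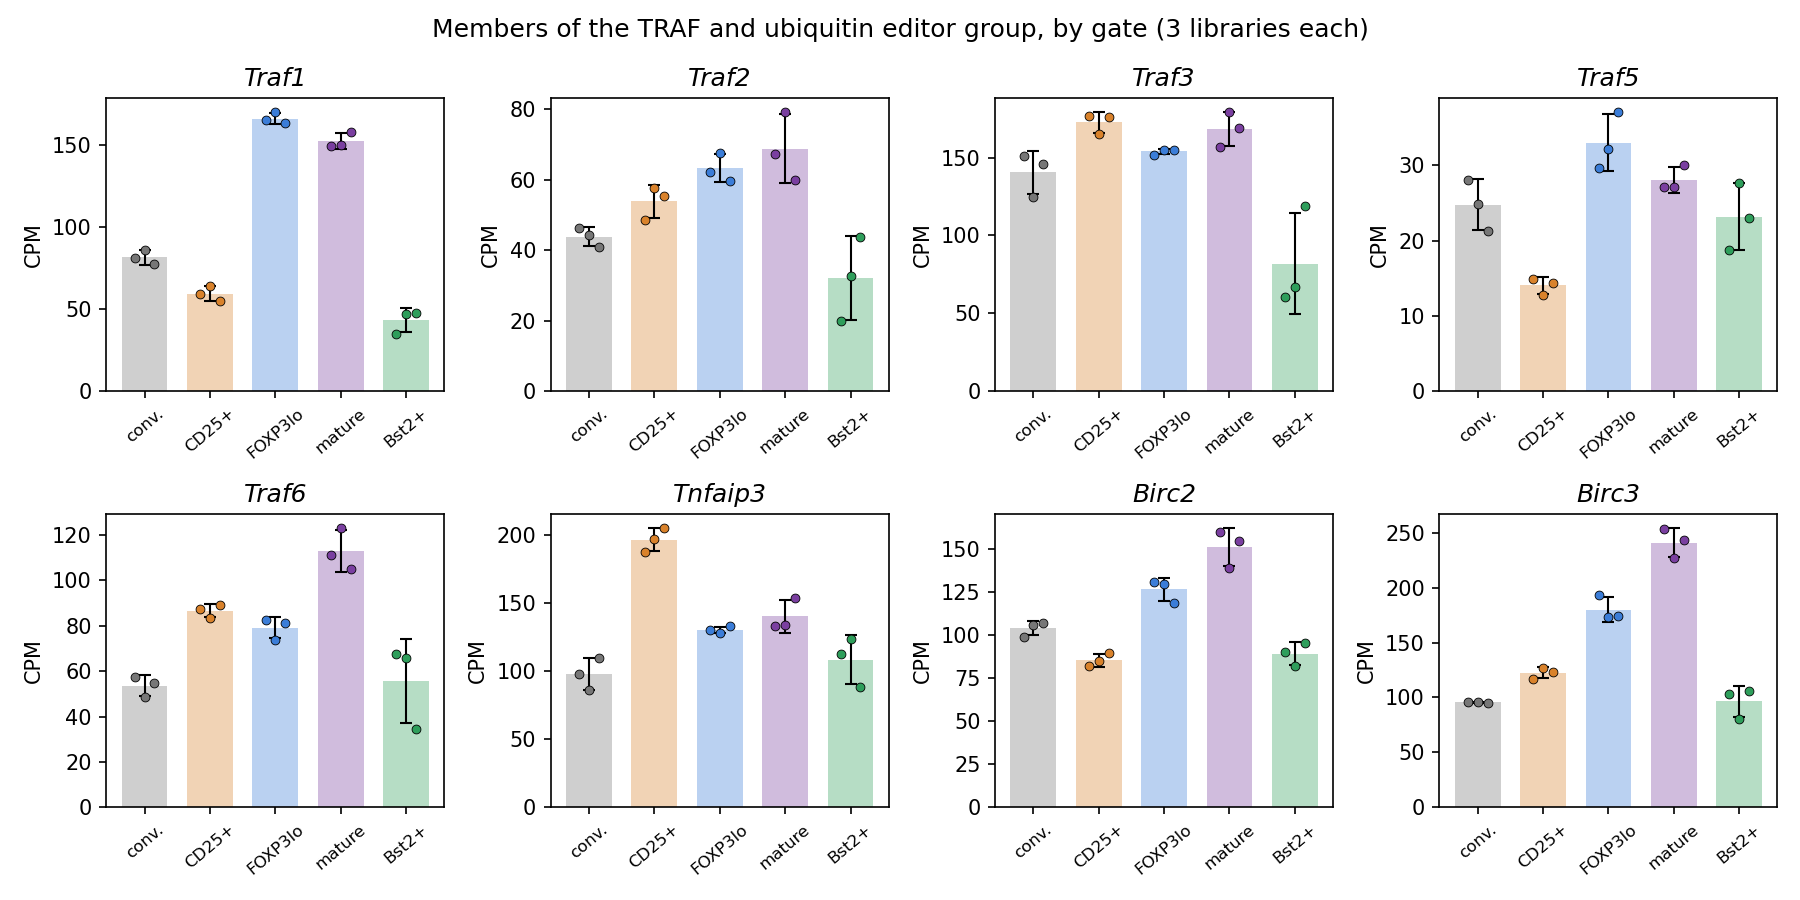
Level of each member in CPM (vertical axis, from 0) in the 5 gates (horizontal axis). Bars are means, whiskers are SD and points are the 3 libraries of a gate. Traf1 is low and Tnfaip3 is high in CD25+ progenitors, with 54.6 to 64.2 CPM and 188 to 205 CPM, and Birc3 is highest in mature Tregs, with 227 to 253 CPM.

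Traf1 separated the gates by FOXP3. TRAF1 lacks the RING domain of the other TRAFs, pairs with TRAF2 and adjusts which cIAPs it recruits. Traf1 (ENSMUSG00000026875, GRCm38 chromosome 2, 34941750 to 34961772) was at 80.9, 86.2 and 77.3 CPM in conventional replicates 40, 42 and 43, at 59.4, 64.2 and 54.6 in CD25+ progenitors, at 165, 170 and 163 in FOXP3lo progenitors and at 149, 150 and 158 in mature Tregs. All 6 libraries with FOXP3 were above all 6 without it, and the CD25+ libraries were the lowest of the 4 gates, with no overlap with conventional cells. Traf1 was higher than in conventional cells by 1.03 ± 0.12 in FOXP3lo progenitors (adjusted p = 1.41e-05) and by 0.90 ± 0.12 in mature Tregs (adjusted p = 3.31e-05). In CD25+ progenitors it was lower by a log2 fold change of −0.46 ± 0.12 (adjusted p = 0.0144). That last call was lost without CD25+ replicate 40 or 43 or conventional replicate 42, at −0.45, −0.40 and −0.40. CD25+ progenitors and mature Tregs, which both carry CD25, differed by 1.36 ± 0.12 (adjusted p = 4.81e-07), while mature Tregs and FOXP3lo progenitors differed by −0.13 ± 0.11 and were not called (adjusted p = 0.794).

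Among the 4 gates without BST2, Traf2 had its lowest values in conventional cells and its highest mean in mature Tregs. TRAF2 is the adaptor on which the cIAPs sit. Traf2 (ENSMUSG00000026942, chromosome 2, 25517982 to 25546940) was at 46.2, 44.2 and 41.0 CPM in conventional cells, 48.6, 57.6 and 55.4 in CD25+ progenitors, 62.3, 67.5 and 59.7 in FOXP3lo progenitors and 67.2, 79.2 and 59.9 in mature Tregs. Conventional libraries were below all others of the 4 gates, and the mature and FOXP3lo libraries overlapped. Of the 6 differences among these gates 1 was called, mature Tregs against conventional cells (0.65 ± 0.20, adjusted p = 0.0444), and it ended with the replicate number fitted as a block (adjusted p = 0.0528, the replicate block) and without any 1 of the 6 libraries compared, at 0.52 to 0.72. Without the Bst2+ libraries Traf2 was also called in FOXP3lo progenitors (0.53, adjusted p = 0.000151) and CD25+ progenitors (0.30, adjusted p = 0.0287) against conventional cells, and in mature Tregs against CD25+ progenitors (0.35, adjusted p = 0.00839).

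Traf3 had the narrowest range among the 4 gates. TRAF3 is the brake on the alternative pathway. Traf3 (ENSMUSG00000021277, chromosome 12, 111166370 to 111267153) was at 151, 125 and 146 CPM in conventional cells, 177, 165 and 176 in CD25+ progenitors, 152, 155 and 155 in FOXP3lo progenitors and 157, 179 and 169 in mature Tregs. The conventional libraries were the lowest, by a small margin over FOXP3lo progenitors. Its log2 fold changes among these gates lay between −0.04 ± 0.18 and 0.29 ± 0.18 and none was called. Leaving out the Bst2+ libraries, 2 were called against conventional cells, in CD25+ progenitors (0.29, adjusted p = 0.00222) and mature Tregs (0.26, adjusted p = 0.00738).

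Traf5 was at its lowest in CD25+ progenitors. TRAF5 is a close relative of TRAF2 that binds receptors such as OX40 and CD27. Traf5 (ENSMUSG00000026637, chromosome 1, 191997205 to 192092559) was at 28.1, 24.9 and 21.3 CPM in conventional cells, 14.9, 12.8 and 14.4 in CD25+ progenitors, 29.7, 32.2 and 37.1 in FOXP3lo progenitors and 27.1, 27.1 and 30.1 in mature Tregs. Every CD25+ library was below every other library of the study. CD25+ progenitors were lower than conventional cells (−0.82 ± 0.19, adjusted p = 0.00779), lower than FOXP3lo progenitors (−1.23 ± 0.19, adjusted p = 0.000152), and mature Tregs were higher than CD25+ progenitors (1.00 ± 0.19, adjusted p = 0.00164). The first of these was lost without conventional replicate 40, at −0.72 (adjusted p = 0.0559). Differences among conventional cells, FOXP3lo progenitors and mature Tregs were not called, the largest being 0.42 ± 0.19 in FOXP3lo progenitors (adjusted p = 0.238, or 0.0311 without the Bst2+ libraries). There are 2 other gene models on the same strand within the span of Traf5.

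Traf6 was higher in CD25+ progenitors and mature Tregs than in conventional cells, with its highest values in mature Tregs. TRAF6 is a ubiquitin ligase that serves IL-1 and Toll-like receptors, RANK, and the antigen receptor. Traf6 (ENSMUSG00000027164, chromosome 2, 101678429 to 101701669) was at 57.4, 48.5 and 54.7 CPM in conventional cells, 87.4, 83.5 and 89.3 in CD25+ progenitors, 82.4, 73.8 and 81.4 in FOXP3lo progenitors and 111, 123 and 105 in mature Tregs. These 4 gates did not overlap, and the progenitors lay close together. The difference from conventional cells was 1.08 ± 0.18 in mature Tregs (adjusted p = 0.000524), 0.69 ± 0.18 in CD25+ progenitors (adjusted p = 0.0168) and 0.56 ± 0.18 in FOXP3lo progenitors, which was not called (adjusted p = 0.0658, or 3.74e-06 without the Bst2+ libraries). The call in CD25+ progenitors was lost without CD25+ replicate 40 or 43 or conventional replicate 42 or 43, at 0.64 to 0.71. Mature Tregs exceeded CD25+ progenitors by 0.38 ± 0.18 and FOXP3lo progenitors by 0.51 ± 0.18, differences that were called without the Bst2+ libraries (adjusted p = 0.000633 and 2.25e-05) and not with them (adjusted p = 0.209 and 0.145).

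Tnfaip3, the gene of the inhibitor A20, was highest in CD25+ progenitors, a margin called over each of the other 3 gates without BST2 that no other member showed. Tnfaip3 (ENSMUSG00000019850, chromosome 10, 19000910 to 19015657) was at 98.3, 86.5 and 110 CPM in conventional cells, 188, 197 and 205 in CD25+ progenitors, 130, 128 and 133 in FOXP3lo progenitors and 133, 134 and 154 in mature Tregs. The CD25+ libraries were above, and the conventional libraries below, all other libraries of the 4 gates. CD25+ progenitors exceeded conventional cells by 1.00 ± 0.12 (adjusted p = 1.90e-05) and FOXP3lo progenitors by 0.60 ± 0.12 (adjusted p = 0.00152), and mature Tregs were lower than CD25+ progenitors (−0.49 ± 0.12, adjusted p = 0.00983). Mature Tregs were above conventional cells by 0.51 ± 0.12 (adjusted p = 0.00807), a call lost without conventional replicate 42 or mature replicate 43, at 0.41 in both cases. FOXP3lo progenitors were above them by 0.40 ± 0.12 (adjusted p = 0.0449), a call that ended under the replicate block (adjusted p = 0.0673), with no filter on low counts (0.0623), and when any library compared other than conventional replicate 43 was left out, at 0.31 to 0.42. The difference that went with CD25 was 1.00 ± 0.12 in cells without FOXP3 and 0.11 ± 0.12 in cells with it, and the test of this interaction gave −0.89 ± 0.17 (adjusted p = 0.00662). The gates with FOXP3 also differed in Foxp3 RNA (272 to 301 CPM in FOXP3lo progenitors, 532 to 648 in mature Tregs). Those with CD25 differed in Il2ra (281 to 295 CPM in CD25+ progenitors, 1120 to 1180 in mature Tregs). The interaction test cannot tell CD25 apart from these levels. By that test 1 member was higher and 1 lower, where 1.19% of all genes were called higher and 1.16% lower, and 2 and 1 without the Bst2+ libraries (10.9% called), where Traf1 was added (0.33, adjusted p = 0.0486, against 0.571 with all libraries).

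**Figure D2:**
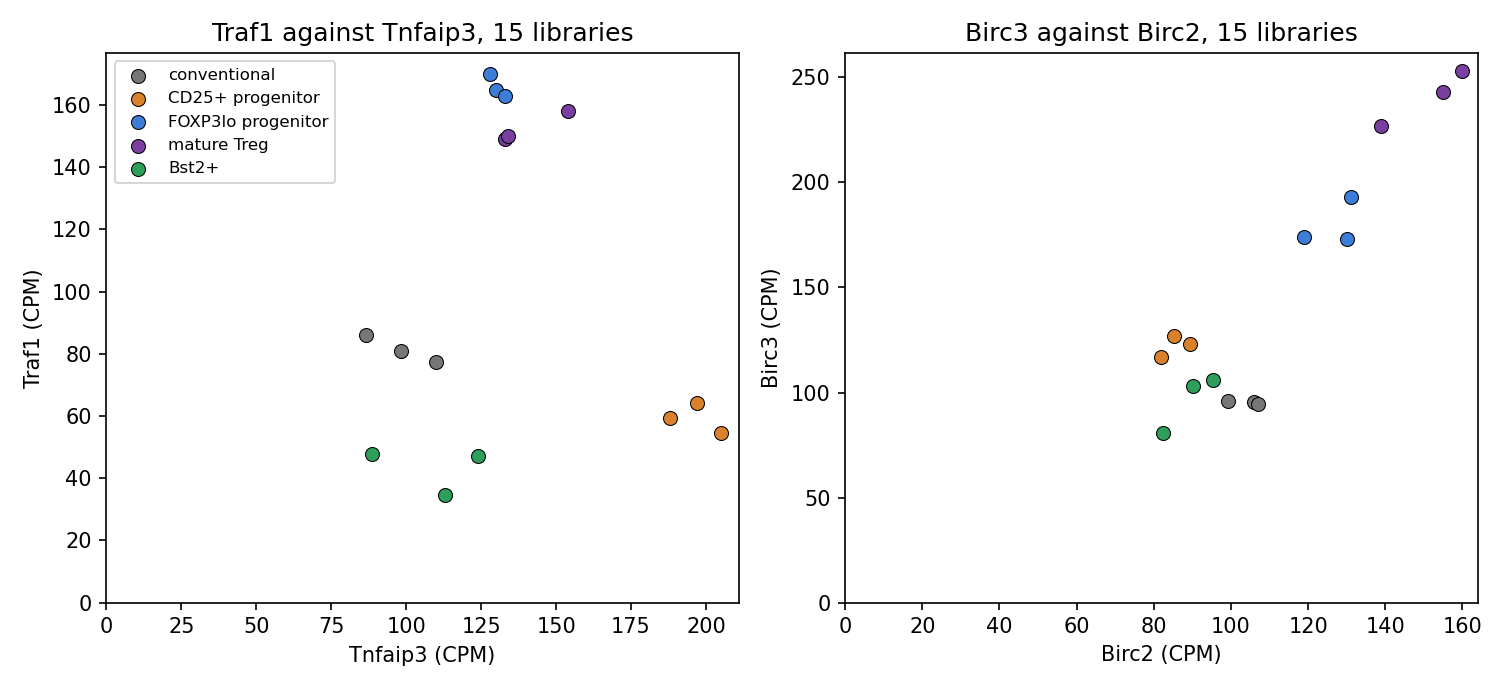
Traf1 against Tnfaip3 (left) and Birc3 against Birc2 (right) in CPM, 1 point per library, coloured by gate. On the left the CD25+ libraries lie apart, with Tnfaip3 at 188 CPM or more and Traf1 at 64.2 CPM or less, and the FOXP3lo and mature libraries lie high on Traf1. On the right the CD25+ libraries have less Birc2 and more Birc3 than the conventional libraries.

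Traf1 and Tnfaip3 therefore moved in opposite directions in CD25+ progenitors and in the same direction in FOXP3lo progenitors. Their ratio within a library, per kilobase of exon, does not depend on how libraries are scaled. The ratio of Traf1 to Tnfaip3 was 0.674, 0.817 and 0.574 in conventional cells, 0.259, 0.267 and 0.218 in CD25+ progenitors, 1.04, 1.09 and 1.01 in FOXP3lo progenitors and 0.917, 0.918 and 0.843 in mature Tregs. The CD25+ libraries had the lowest ratios of these 4 gates and the FOXP3lo libraries the highest, without overlap.

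Birc2 and Birc3 encode closely related ubiquitin ligases and lie side by side on chromosome 9, on the same strand and 11634 bases apart. As paralogs they share sequence. Only pairs of mapping quality 10 or more were counted, and how many pairs from shared stretches this left out for either gene is not known. Birc2 (ENSMUSG00000057367, 7818227 to 7837064) was at 99.3, 106 and 107 CPM in conventional cells, 82.0, 85.2 and 89.5 in CD25+ progenitors, 131, 130 and 119 in FOXP3lo progenitors and 160, 139 and 155 in mature Tregs. The 4 gates did not overlap, and CD25+ progenitors were lowest. Mature Tregs were above conventional cells by 0.54 ± 0.09 (adjusted p = 0.000724) and above CD25+ progenitors by 0.82 ± 0.10 (adjusted p = 1.34e-05), and CD25+ progenitors were below FOXP3lo progenitors (−0.57 ± 0.10, adjusted p = 0.000317). Against conventional cells, CD25+ progenitors had a log2 fold change of −0.28 ± 0.09 (adjusted p = 0.0701) and FOXP3lo progenitors had 0.29 ± 0.09 (adjusted p = 0.0747). Both were called without the Bst2+ libraries (adjusted p = 0.00542 and 0.00444), as was mature Tregs against FOXP3lo progenitors (0.26, adjusted p = 0.0158, against 0.176 with all libraries).

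Birc3 (ENSMUSG00000032000, 7848699 to 7873186) was at 95.9, 95.7 and 94.7 CPM in conventional cells, 117, 127 and 123 in CD25+ progenitors, 193, 173 and 174 in FOXP3lo progenitors and 253, 227 and 243 in mature Tregs. It was the only member for which every step in the order of the 4 gates was called. Birc3 was above conventional cells by 0.36 ± 0.10 in CD25+ progenitors (adjusted p = 0.0263), 0.92 ± 0.10 in FOXP3lo progenitors (adjusted p = 1.15e-05) and 1.34 ± 0.10 in mature Tregs (adjusted p = 7.29e-08). FOXP3lo progenitors were above CD25+ progenitors (adjusted p = 0.000651) and mature Tregs above FOXP3lo progenitors by 0.42 ± 0.10 (adjusted p = 0.0200). Both the first and the last of these calls ended with no filter on low counts (adjusted p = 0.0965 and 0.0719). The first step was lost when any library compared other than CD25+ replicate 40 was left out, at 0.33 to 0.37, and the last without FOXP3lo replicate 42 or 43 or mature replicate 40 or 43, at 0.38 to 0.41.

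The neighbours on chromosome 9 thus differed in CD25+ progenitors. The ratio of Birc3 to Birc2 per kilobase of exon was 0.883, 0.827 and 0.812 in conventional cells, 1.30, 1.37 and 1.26 in CD25+ progenitors, 1.34, 1.22 and 1.34 in FOXP3lo progenitors and 1.45, 1.5 and 1.44 in mature Tregs. All 9 libraries with CD25 or FOXP3 and without BST2 were above all 3 conventional libraries. For Birc2 the difference that went with CD25 was −0.28 in cells without FOXP3 and 0.25 in cells with it (interaction 0.53 ± 0.13, adjusted p = 0.0448). That call ended under the replicate block (adjusted p = 0.0700), with no filter on low counts (adjusted p = 0.333) and without any 1 of the 12 libraries, at 0.48 to 0.58. For Birc3 the interaction was 0.06 ± 0.14 (adjusted p = 1.00). Tmem123, the next gene beyond Birc2 (ENSMUSG00000050912, 7764041 to 7794333), lies on the other strand and encodes a membrane protein. It averaged 124 CPM in conventional cells against 168, 224 and 569 in CD25+, FOXP3lo and mature cells, where it was higher by 2.19 (adjusted p = 3.88e-11). Yap1, the next gene beyond Birc3, averaged at most 1.6 CPM in any gate.

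**Figure D3:**
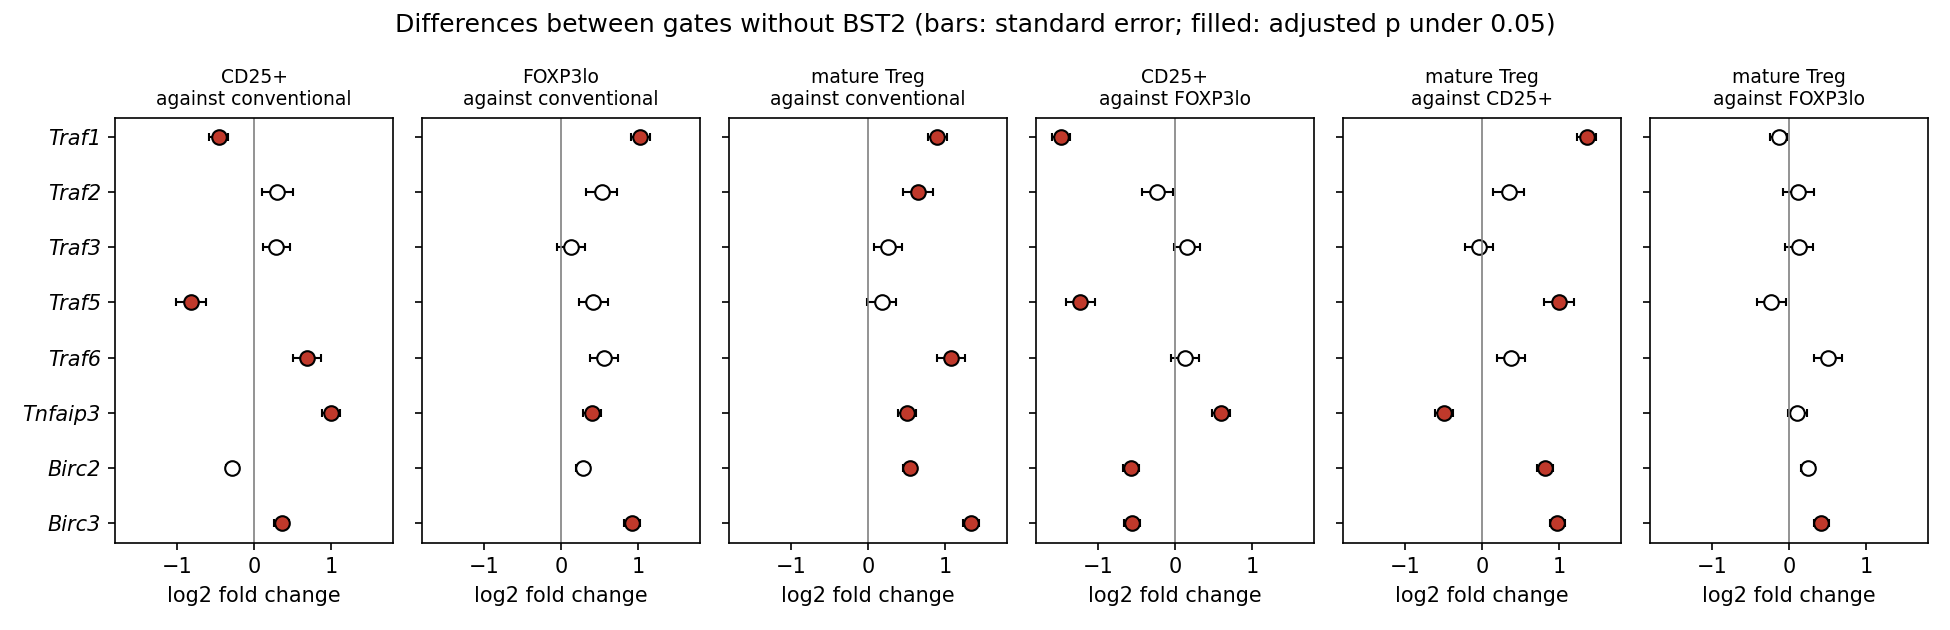
Log2 fold change of each member (points, with standard errors as bars) in the 6 comparisons among the gates without BST2, with filled points at an adjusted p under 0.05. Traf1, Traf5 and Birc2 lie below 0 in CD25+ progenitors against FOXP3lo progenitors, at −1.48, −1.23 and −0.57, and Tnfaip3 lies above it at 0.60.

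Levels of different genes were set side by side per kilobase of summed exon, though the lengths of the transcripts made are not known. On this scale the order of the members changed between gates. In conventional cells Birc2 was highest (22.7 ± 0.879 CPM per kilobase), followed by Traf3 (19.1 ± 1.91) and Birc3 (19.1 ± 0.129). In CD25+ progenitors Tnfaip3 led with 27.2 ± 1.17, ahead of Birc3 at 24.5 ± 1.05 and Traf3 at 23.5 ± 0.898. In mature Tregs Birc3 led with 48.2 ± 2.59, ahead of Birc2 at 33.0 ± 2.40 (SD, n = 3 throughout). Traf5 was the lowest of the 8 in each of the 4 gates without BST2, between 3.08 ± 0.239 in CD25+ progenitors and 7.23 ± 0.825 in FOXP3lo progenitors. Traf1 had rank 4 of 8 in FOXP3lo progenitors and rank 7 in CD25+ progenitors.

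In the Bst2+ gate most members were below the other gates with CD25 or FOXP3. Its libraries also held less RNA of Treg markers when these were summed. The 4 Treg markers (Foxp3, Il2ra, Ikzf2 and Tnfrsf18) summed to 459 to 713 CPM, against 1050 to 3330 in those other gates. Foxp3 was at 9.1 to 40.2 CPM, against 272 to 648 in FOXP3lo progenitors and mature Tregs and 1.82 to 4.19 in CD25+ progenitors. Il2ra, at 163 to 308 CPM, was above FOXP3lo progenitors (100 to 117). It overlapped CD25+ progenitors (281 to 295) and was below mature Tregs (1120 to 1180). The part of these markers in the levels of the members was not tested. Against the average of CD25+ progenitors, FOXP3lo progenitors and mature Tregs, 7 of 8 members were lower and 0 higher, where 19.8% of all genes were called lower and 19.3% higher, and the members' median was −0.79 beside −0.03 over all genes tested. Traf1 was at 34.7, 47.1 and 47.8 CPM in Bst2+ replicates 40, 42 and 43, below every other library of the study (−1.40 ± 0.10, adjusted p = 3.27e-08). Traf3 was at 60.2, 66.7 and 119 CPM (−1.01 ± 0.15, adjusted p = 7.43e-05), Traf2 at 20, 32.7 and 43.8 (−0.93 ± 0.18, adjusted p = 0.000508) and Traf6 at 67.4, 65.7 and 34.5 (−0.72 ± 0.15, adjusted p = 0.00149). These libraries did not move together, since replicate 43 was highest for Traf2 and Traf3 and lowest for Traf6. Birc3 was at 103, 80.5 and 106 CPM (−0.86 ± 0.09, adjusted p = 1.08e-06), Tnfaip3 at 113, 124 and 88.6 (−0.50 ± 0.10, adjusted p = 0.000963) and Birc2 at 90.2, 82.4 and 95.4 (−0.40 ± 0.08, adjusted p = 0.000819), and Birc2 overlapped CD25+ progenitors. Traf5, at 18.8, 27.7 and 23.0 CPM, was not called (−0.02 ± 0.16, adjusted p = 0.934), and its sign turned with other scalings. The Bst2+ gate was not tested against conventional cells. Mean Birc3, Traf6, Tnfaip3 and Traf5 were near conventional cells (96.2, 55.9, 109 and 23.2 CPM against 95.4, 53.5, 98.4 and 24.7). Mean Traf1, Traf2, Traf3 and Birc2 were below them (43.2, 32.2, 81.8 and 89.3 against 81.5, 43.8, 141 and 104).

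Markers of other cells moved with the Bst2+ gate, and their part in these results was not tested. In bulk RNA, fewer cells of a type and less RNA per cell cannot be told apart. Of 10 markers of macrophages and dendritic cells all 10 had a count there and summed to 457 to 770 CPM, against 1.84 to 7.94 in the other 12 libraries. Nearly all of this was Lyz2, Csf1r, Adgre1, C1qa, C1qb and Cd68. Itgax, Flt3, Zbtb46 and Xcr1, which mark dendritic cells, reached at most 8.01, 2.78, 5.18 and 1.26 CPM. Zbtb46 was at 0 in Bst2+ replicate 42 and at 2.33 to 2.91 in mature Tregs. Of 7 genes of CD8 and double-positive thymocytes all 7 had a count and summed to 758 to 1310 CPM, against 20 to 205 elsewhere, most of it Dntt and Rag1. Cd8a (5.56 to 36.7 CPM) and Cd8b1 (11.4 to 43.1) overlapped conventional cells (9.14 to 27.2 and 21.2 to 32.5). The 8 B cell markers summed to 8.43 to 54.0 CPM against 1.21 to 3.37, and the 6 gamma-delta T cell genes to 106 to 293 against 10.2 to 44.6, with Trdv4 at 0. The 7 plasmacytoid dendritic cell markers, which include Bst2 itself, summed to 88.5 to 159 against 36.0 to 65.7, but the sum was mostly Tcf4 (56.6 to 83.0 CPM), Bst2 (15.7 to 50.3) and Ly6d (6.75 to 54.0). Bst2 was at 50.3, 18.4 and 15.7 CPM in Bst2+ replicates 40, 42 and 43, against 11.3 to 18.3 in the other 12 libraries. The defining marker Siglech was at 0, 0 and 1.45 CPM, Spib was at most 0.288, and Runx2 (3.15 to 6.24) was below mature Tregs (12.7 to 17.2). Of 7 epithelial and stromal markers 3 had a count (7.57 to 40.7 CPM summed, against 3.25 to 13.1), and Krt5, Foxn1, Psmb11 and Pdgfra were at 0. Most of that sum was Epcam, at 40.7, 21.2 and 5.36 CPM. The shared estimate of spread was below that of the Bst2+ libraries, so p-values of this gate may be too small.

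The CD25+ progenitor libraries also differed from conventional cells in such lists. CD8 and double-positive genes summed to 158 to 205 CPM against 53.1 to 92.6, with Rag1 at 72.5, 60.2 and 40.9 CPM against 0.890, 6.11 and 0.696, and gamma-delta genes to 38.3 to 44.6 against 15 to 23.0. The part of these marker lists in the low Traf1, Traf5 and Birc2 and the high Tnfaip3 of the CD25+ libraries was not tested. Markers of macrophages and dendritic cells (C1qa, Lyz2 and Xcr1 at 0) and of B cells (Ms4a1 at 0) summed to at most 6.01 and 3.33 CPM in these libraries.

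The other genes of the pathway were taken from a list of 74, of which 71 were matched and 69 tested. In CD25+ progenitors 13 were higher and 12 lower than in conventional cells (median 0.03), beside 5.98% and 5.66% of all genes tested. In FOXP3lo progenitors 24 were higher and 1 lower (median 0.30), beside 4.88% and 3.83%, and in mature Tregs 25 and 4 (median 0.23), beside 6.45% and 5.73%. Without conventional replicate 42 or 43 or FOXP3lo replicate 43 the 25 genes called in FOXP3lo progenitors became 15, 16 and 16. With the Bst2+ libraries left out, 20 genes were higher and 23 lower in CD25+ progenitors, 35 and 4 in FOXP3lo progenitors, and 34 and 10 in mature Tregs, where 29.0%, 25.1% and 30.4% of all genes were called. Between the progenitors 6 were higher and 24 lower in CD25+ cells (median −0.26), beside 9.93% and 9.17% of all genes. Those counts were 9 and 32 without the Bst2+ libraries, where 39.5% of all genes were called. Receptors and NF-κB subunits held most of the higher genes of CD25+ progenitors, with 5 of 12 receptors higher and 2 lower, and 6 of 11 subunits and inhibitors higher and 1 lower. Of the 46 genes that stand between receptors and subunits, like the 8 members, 2 were higher and 9 lower in CD25+ progenitors, 12 were higher and 1 lower in FOXP3lo progenitors, and 12 were higher and 2 lower in mature Tregs.

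**Figure D4:**
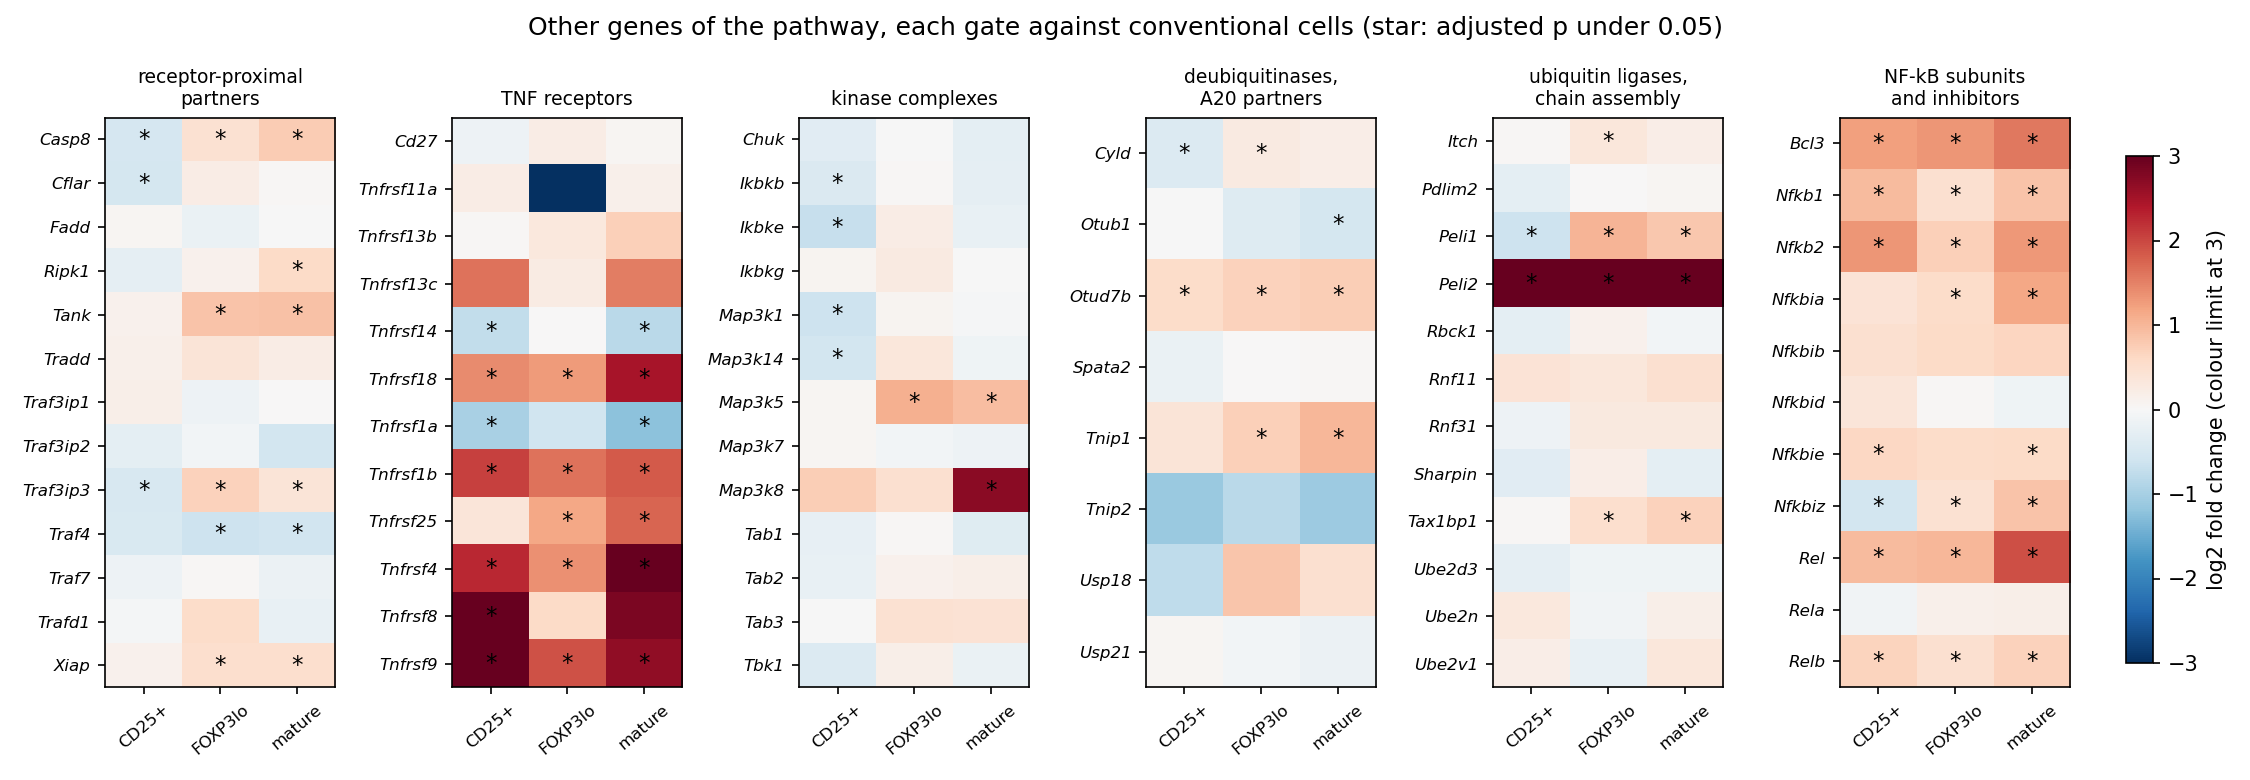
Log2 fold changes of the 69 tested genes of the pathway list (colour, limited at 3 in each direction) in CD25+ progenitors, FOXP3lo progenitors and mature Tregs against conventional cells, in 6 groups, with stars at an adjusted p under 0.05. Receptors such as Tnfrsf9 and subunits such as Nfkb2 are red in all 3 columns, and 4 kinase genes are blue with a star only in the CD25+ column.

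Among receptors, Tnfrsf9 (4-1BB) averaged 36.6 ± 7.81 CPM in conventional cells against 423 ± 48.9, 136 ± 4.21 and 232 ± 20.3 in CD25+, FOXP3lo and mature cells. Like Tnfaip3 it was highest in CD25+ progenitors, with 1.64 ± 0.16 over FOXP3lo progenitors (adjusted p = 9.79e-07). Tnfrsf1b (TNFR2) averaged 54.8 ± 3.76, 227 ± 31.3, 170 ± 19.5 and 195 ± 10.6 CPM in the same order. Tnfrsf4 (OX40) averaged 39.9 ± 6.03, 190 ± 38.3, 104 ± 14.5 and 371 ± 22.2, and Tnfrsf18 (GITR) 53.1 ± 0.967, 142 ± 19, 129 ± 18.5 and 297 ± 28.6, both at their highest in mature Tregs (log2 fold changes of 3.21 ± 0.17 and 2.48 ± 0.15 over conventional cells, adjusted p = 8.96e-10 and 6.67e-09). The same 2 receptors were lower than in conventional cells in mature Tregs and in CD25+ progenitors. Tnfrsf1a (TNFR1), which recruits the adaptor TRADD, was lower by −1.24 ± 0.29 in mature Tregs (adjusted p = 0.00729) and −0.97 ± 0.29 in CD25+ progenitors (adjusted p = 0.0349), and Tnfrsf14 by −0.80 ± 0.21 (adjusted p = 0.0155) and −0.73 ± 0.21 (adjusted p = 0.0275). In CD25+ progenitors the Tnfrsf1a call was lost without any 1 of the 6 libraries, and the Tnfrsf14 call without any other than CD25+ replicate 43. In mature Tregs the Tnfrsf14 call was lost without conventional replicate 40 or 43 or mature replicate 40 or 43, at adjusted p = 0.0522 to 0.0706.

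Traf3ip3, a TRAF3-interacting membrane protein, averaged 290 ± 10.3 CPM in conventional cells against 207 ± 2.94, 464 ± 18.9 and 381 ± 19.5 in CD25+, FOXP3lo and mature cells. The ubiquitin ligase gene Peli1 averaged 189 ± 15.2, 122 ± 9.87, 385 ± 4.77 and 330 ± 9.88 in the same order, and the kinase gene Ikbke 403 ± 32.8, 249 ± 12.7, 470 ± 0.199 and 346 ± 36.2. CD25+ progenitors were below FOXP3lo progenitors by log2 fold changes of −1.16 ± 0.08 for Traf3ip3 (adjusted p = 3.42e-08) and −1.65 ± 0.12 for Peli1 (adjusted p = 5.00e-08). Against conventional cells Ikbke was lower in CD25+ progenitors (−0.70 ± 0.11, adjusted p = 0.000291), as was Traf3ip3 (−0.49 ± 0.08, adjusted p = 0.000578). In FOXP3lo progenitors the 1 lower gene was Traf4, the TRAF least tied to TNF receptors (−0.63 ± 0.18, adjusted p = 0.0316), a call lost without any 1 of the 6 libraries, at −0.71 to −0.53. Traf4 averaged 74.4 ± 5.12 CPM in conventional cells against 54.6 ± 6.37, 48.0 ± 6.23 and 49.7 ± 3.82 in CD25+, FOXP3lo and mature cells. It was also called lower in mature Tregs (−0.58 ± 0.18, adjusted p = 0.0376), a call not followed through the alternatives.

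Among NF-κB genes, Rel (the c-Rel subunit) averaged 113 ± 8.22 CPM in conventional cells against 220 ± 3.40, 225 ± 13.2 and 436 ± 17.7 in CD25+, FOXP3lo and mature cells. Its difference from conventional cells was 0.99 ± 0.10 in FOXP3lo progenitors (adjusted p = 3.45e-06) and 1.94 ± 0.10 in mature Tregs (adjusted p = 7.64e-10). Nfkb2, the precursor that the alternative pathway processes, averaged 75.1 ± 2.51, 187 ± 24.5, 124 ± 4.65 and 186 ± 21.2, and was higher in CD25+ than in FOXP3lo progenitors by 0.60 ± 0.11 (adjusted p = 0.000661). Nfkbiz, a nuclear inhibitor-like regulator, had the order of Birc2, with 88.1 ± 6.70, 60.0 ± 2.49, 121 ± 5.93 and 160 ± 3.71 CPM, and was lower in CD25+ progenitors than in conventional cells (−0.55 ± 0.10, adjusted p = 0.000908).

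In the Bst2+ gate 34 of 69 pathway genes were lower and 5 higher than that same average, beside 19.8% and 19.3% of all genes. The lower ones included Tnfrsf1b (−1.69 ± 0.11), Tnfrsf9 (−2.28 ± 0.15) and Nfkb2 (−1.42 ± 0.10, adjusted p = 1.40e-08). The higher ones included Otub1, a deubiquitinase (0.48 ± 0.11, adjusted p = 0.00309), Ripk1, the kinase bound by TRADD (0.49 ± 0.14, adjusted p = 0.00961), and Tnfrsf8 (CD30, 2.64 ± 0.69, adjusted p = 0.00619). Without Bst2+ replicate 40 Ripk1 and Tnfrsf8 were not called, at 0.23 and 1.71.

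Genes with the most similar pattern were ranked for each member by Pearson's r of log2 CPM over the 12 libraries without BST2, among 8610 named genes. The 12 points are 3 libraries from each of 4 gates. For Traf1 they were Klf3 (r = 0.992), Patj (0.991) and Peli1 (0.990), and Klf3, a repressor of the Krüppel-like family, averaged 103 ± 9.57 CPM in conventional cells against 62.3 ± 10.1, 247 ± 7.11 and 232 ± 11.9 in CD25+, FOXP3lo and mature cells. For Traf5 they were Znrf2 (0.990), Ms4a6b (0.980) and Tcp11l2 (0.980). For Traf6 they were Reep5 (0.987), Stat5a (0.981), a transcription factor activated by IL-2, and Vav2 (0.979). For Tnfaip3 they were Rnf149 (0.972), Tfdp2 (0.971) and Wdr6 (0.971), and Rnf149 averaged 59.7 ± 5.51, 161 ± 17, 82.4 ± 4.77 and 85.3 ± 7.76 CPM in the same order. For Birc2 they were Nfkbiz (0.967), Panx1 (0.964) and Izumo1r (0.964), and for Birc3 Crim1 (0.993), Dennd5a (0.992) and Mxd1 (0.988). For Traf2 they were Gfpt1 (0.948), Rufy3 (0.940) and Tlk1 (0.940), and for Traf3 Sdha (0.935), Kctd1 (0.928) and Esf1 (0.914). Among the members themselves r was 0.90 for Traf1 with Birc2, 0.88 for Traf1 with Traf5, 0.88 for Traf2 with Birc3, −0.64 for Traf5 with Tnfaip3 and −0.32 for Traf1 with Tnfaip3.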

How the data were processed

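The deposited table holds raw counts of read pairs per gene, which the authors made with featureCounts 1.6.2 and Ensembl 97 gene models (GRCm38), counting pairs of mapping quality 10 or more on the reverse strand (setting 2), per the file headers. The submitters' processing notes list Trimmomatic 0.33, HISAT2 2.1.0 and another counter version, featureCounts 1.4.6. All 15 value columns were matched to libraries. Summed exon lengths come from the deposited table. Amplified copies cannot be told from molecules, so depth speaks of counting error only.

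Genes were named by position against RefSeq on GRCm38.p6 (overlap of at least 0.5, margin 0.2, or a shared end for 361 genes), which named 34440 of 55573 genes and matched 136 of 141 list entries. Tests used R 4.3.3 and edgeR 4.0.16 (quasi-likelihood, robust, TMM, filterByExpr) on 15 libraries with 5 group means. The fit was also run on simulated counts in which all gates shared the spread of a gene. That run cannot speak to the wider spread of the Bst2+ gate. The members and lists were chosen with earlier results of these data known. Pathway genes named are the up to 3 called in each direction with the smallest adjusted p per comparison, or the same genes again in another comparison; Bcl3 and Nfkb1 were added after their values were seen. Similar genes were ranked as stated, with a mean of at least 5 CPM and a prior count of 2, leaving out gate genes, segments of antigen receptors, small RNAs, pseudogenes and genes named only by clone. Alternatives were RLE factors, no filter, 2 CPM in 3 libraries, the replicate block, limma-voom (limma 3.58.1), DESeq2 1.42.0, leaving out each library and leaving out the Bst2+ gate.

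The same replicate number in different gates was read as the same biological replicate, a reading that comes from the titles and the design text. Deviations from the gate means of same-numbered libraries correlated across genes at −0.016 to 0.042 (30 pairs), those of other pairs at −0.044 to 0.035 (60 pairs).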

Additional observations from a re-analysis of the deposited data

Results flagged for a closer look

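The interaction of the CD25 and FOXP3 gates was called for 2 members and for 8 genes of the pathway list. Of these 8 genes, 3 had a positive and 5 a negative interaction. The test was the quasi-likelihood test of edgeR, with 1.19% of all genes called higher and 1.16% lower. Mature Tregs had more Foxp3 RNA than FOXP3lo progenitors and more Il2ra RNA than CD25+ progenitors. The interaction therefore cannot tell CD25 apart from these levels. Tnfaip3 had an interaction of −0.89 ± 0.17 (adjusted p = 0.00662), with 98.4 ± 11.9 CPM in conventional cells against 197 ± 8.48, 130 ± 2.47 and 140 ± 11.8 in CD25+, FOXP3lo and mature cells. It was called under all 12 fits that leave out a library, at −0.98 to −0.82. Birc2 had one of 0.53 ± 0.13 (adjusted p = 0.0448), with 104 ± 4.02, 85.6 ± 3.80, 127 ± 6.68 and 151 ± 11 CPM in the same order, and was called in 0 of these 12 fits.

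The receptors Tnfrsf9 (−2.76 ± 0.22, adjusted p = 2.18e-06) and Tnfrsf1b (−1.85 ± 0.17, adjusted p = 4.86e-06) had negative interactions like Tnfaip3, as had Nfkb2 (−0.72 ± 0.15, adjusted p = 0.0155). So had Bcl3, a nuclear partner of NF-κB (−0.98 ± 0.21, adjusted p = 0.0198), and Nfkb1, the p50 precursor (−0.57 ± 0.14, adjusted p = 0.0410), both named after their values were seen. Nfkbiz (0.95 ± 0.14, adjusted p = 0.000659), Casp8, the caspase that death receptors recruit (0.78 ± 0.19, adjusted p = 0.0333), and Map3k8, the kinase TPL2 (1.48 ± 0.38, adjusted p = 0.0481), had positive ones like Birc2. Map3k8 averaged 9.51 ± 1.6 CPM in conventional cells against 16 ± 0.894, 13.2 ± 0.768 and 61.9 ± 12 in CD25+, FOXP3lo and mature cells. Casp8 and Map3k8 were not called when any 1 of the 12 libraries was left out, with adjusted p-values up to 0.120 and 0.186. Nfkb2 was not called without CD25+ replicate 42 or 43, mature replicate 40 or 43, or FOXP3lo replicate 42, with adjusted p-values of 0.0522 to 0.0659. Bcl3 was not called without FOXP3lo replicate 40 or 43, conventional replicate 42, CD25+ replicate 42 or 43, or mature replicate 42 or 43, with adjusted p-values of 0.0529 to 0.0682. Nfkb1 was called in 1 of the 12 fits, the one without conventional replicate 40, and was not called with the replicate number as a block (adjusted p = 0.0715). The 8 pathway genes called became 3 to 6 when 1 library was left out, with 3 without CD25+ replicate 42 or 43 or mature replicate 43.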

How the results depend on the processing

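Leaving out the Bst2+ libraries moved most counts. Against conventional cells the members called went from 5 to 8 in CD25+ progenitors and from 3 to 7 in FOXP3lo progenitors, and the pathway genes from 25 to 43, 25 to 39 and 29 to 44 in CD25+ progenitors, FOXP3lo progenitors and mature Tregs. For mature Tregs against FOXP3lo progenitors they went from 1 to 3 members and from 13 to 31 pathway genes, and for the interaction from 8 to 20 pathway genes. With DESeq2 the members called were 5 in FOXP3lo progenitors against conventional cells and 2 in mature Tregs against FOXP3lo progenitors. With no filter on low counts they were 0 for mature Tregs against FOXP3lo progenitors, where Birc3 had an adjusted p of 0.0719, and 1 for the interaction. With the replicate number as a block 1 member was called for the interaction, and beside Birc2 there the block ended the calls of Traf2, Tnfaip3 and Nfkb1 given in the text and no other of 121 gene results. Leaving out 1 library at a time, the members called ranged from 2 to 4 in CD25+ progenitors, 2 to 3 in FOXP3lo progenitors and 4 to 5 in mature Tregs against conventional cells, from 5 to 5 between the progenitors and for mature Tregs against CD25+ progenitors, from 0 to 1 for mature Tregs against FOXP3lo progenitors, from 1 to 1 for the interaction and from 7 to 7 in the Bst2+ gate. The pathway genes called ranged from 18 to 20, 15 to 18 and 24 to 27 against conventional cells, 21 to 25 between the progenitors, 18 to 21 and 6 to 8 for mature Tregs against CD25+ and FOXP3lo progenitors, 3 to 6 for the interaction and 38 to 49 in the Bst2+ gate. The sign of Traf5 in the Bst2+ gate turned with DESeq2 size factors (0.03), DESeq2 (0.03), the filter of 2 CPM (0.01), without Bst2+ replicate 40 (0.10) and without FOXP3lo replicate 43 (0.00), and leaving out 1 library at a time it ranged from −0.18 to 0.10. No other gene result named here changed sign in any alternative. Each member had at least 196 counts in each library, and the shares of counting error and of other spread in these differences were not separated.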
